A study of Pyronema omphalodes CBS 100304 with 6 samples.

Results

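Nucleotides are the building blocks of RNA and DNA, and fungal cells either assemble them from small precursors or recover them from free bases and nucleosides. In *de novo* synthesis the purine ring is built stepwise on phosphoribosyl pyrophosphate until inosine monophosphate (IMP) is reached, from which one branch leads to adenine and another to guanine nucleotides, whereas the pyrimidine ring is closed first and then joined to phosphoribosyl pyrophosphate. Tetrahydrofolate, charged mainly by serine hydroxymethyltransferase, carries the one-carbon units that purine synthesis, thymidylate synthesis and the methyl cycle use.

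Genes for these pathways were examined in vegetative mycelium of the filamentous ascomycete *Pyronema confluens*. Members were the gene models whose predicted product matched a fixed set of words for enzymes of purine, pyrimidine, nucleotide and folate metabolism, which gave 57 of the 13369 models. The products were named by similarity to proteins of other organisms. The word match used no expression values, but it was chosen with earlier results of these data known. The 57 models fell into 8 roles. These were purine synthesis with 9 models, pyrimidine synthesis with 6, folate and one-carbon units with 7, ribonucleotide reduction and thymidylate with 4, nucleotide kinases with 7, salvage of bases and nucleosides with 8 (of which 2 are a uracil catabolism and a uracil-regulated protein rather than salvage enzymes), a group of 6 that act in histidine, tryptophan, NAD, pantothenate and riboflavin synthesis, and a group of 10 for RNA and DNA modification or transport. The members of the last 2 roles matched through words such as phosphoribosyl or uracil and are not enzymes of nucleotide synthesis.

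RNA-seq was done on the subjective morning, 36 hr after transfer to constant darkness (DD36), and on the subjective evening, 24 hr after transfer (DD24), to look for genes under control of the circadian clock. Both groups were the wild type in shaken liquid culture, kept in constant light for at least a day before the transfer. Transfers were timed so that all cultures had grown about equally long when they were collected under red light. The paper states that mycelial growth had ceased by then, with the cultures in stationary phase. Each time point had 3 independent biological replicates, named a, b and c. With 2 time points, a circadian rhythm cannot be told apart from any other change with time in darkness. The wild type forms neither conidia nor fruiting bodies under these conditions.

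Counts summed to 855895, 1058211 and 985049 in the DD36 libraries, and to 881117, 1132608 and 806459 in the DD24 libraries. These sums are far below the mapped reads the paper lists for each library, and what was left out in counting is not stated. A count of 0 allows up to 3 counts, or 2.55 to 4.73 CPM depending on the library, and this limit covers counting error only. CPM here means normalized counts, scaled by the sum over the tested genes and a TMM factor, which corrects for libraries in which a few models take many reads. The model *PCON_08583* took 30.7 to 39.3% of all counts in DD36, against 34.0 to 52.2% in DD24, and TMM factors were 1.02 to 1.13 except in DD24 replicate a, where it was 0.728. Genes on a word list for growing mycelium summed to between 16813 and 21790 CPM in DD36, against 18606 to 20309 CPM in DD24, so these ranges overlapped. Genes of sexual development summed to 2428 to 2897 CPM in DD36, against 2579 to 3092 CPM in DD24. The part of these values in the results below was not tested.

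Of the 57 members, 48 had enough counts to be tested, in a table of 5466 tested genes. Of the other 9, 2 had 0 counts in all 6 libraries, namely *PCON_02184*, the dihydroorotase that closes the pyrimidine ring, and *PCON_04773*, a putative adenylate kinase. Both models overlap a neighbor over most of their length, by 1155 bases with *PCON_02183* and by 905 bases with *PCON_04772*. It is not stated how the counting treated reads in such overlaps. The remaining 7 had at most 13 counts in any library. Among them were *PCON_02997*, thymidylate synthase, which makes the DNA precursor dTMP, with 11, 5 and 9 counts in DD36 and 4, 8 and 8 in DD24, and *PCON_09879*, thymidylate kinase, with at most 3 counts. The others were the riboflavin reductase *PCON_04800*, the second adenylate kinase 2 model *PCON_05600*, a uracil DNA glycosylase, *PCON_08410*, and the tRNA adenosine deaminases *PCON_10066* and *PCON_11303*.

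No member passed an adjusted p of 0.05 in either direction (edgeR quasi-likelihood test, Benjamini-Hochberg adjustment over 5466 genes), where 0% of all tested genes passed higher and 0% lower in DD36. The lowest adjusted p of a member was 0.480. With the replicate letter as a block, again no member passed, although 71 genes did, which were 0.0915% of the tested genes higher and 1.21% lower in DD36, and the lowest adjusted p of a member was 0.138. At an unadjusted edgeR p under 0.05, 5 members were higher and 0 lower in DD36, against 2.38% and 4.61% of all genes. With the block these counts were 6 higher and 0 lower, against 4.13% and 7.45% of all genes. In 6 members the 3 DD36 values lay above the 3 DD24 values, against 6.02% of all genes, and in 0 members they lay below, against 5.87%.

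The fitted log2 fold change of DD36 over DD24 was above 0 for 39 of the 48 tested members (81.2%), and for 49.7% of all tested genes. The median over members was 0.18, with a range from -0.30 to 0.73, beside a median of -0.0022 over all genes. The changes were small against the error of a single gene, since the median standard error of a member was 0.234. The 95% interval excluded a 2-fold change in either direction for 36 of the 48 members, reached a 2-fold higher level in DD36 for 12 and a 2-fold lower level for 0. Among all 5466 tested genes these numbers were 4101, 705 and 742. Within letters, 28 members were higher in DD36 in pair a, 37 in pair b and 31 in pair c. Over all 5466 tested genes, 2754, 2774 and 2675 were higher in these pairs. The same direction in all 3 pairs was found for 13 of 48 members higher and 2 lower in DD36, against 868 and 882 of all tested genes. When libraries were scaled by total counts, the median of all genes moved to 0.23 and that of the members to 0.41, which left the distance between them at 0.18.

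DD36 replicates a, b and c held the lowest of the 6 values for 4, 4 and 2 members, against 15, 17 and 6 members for DD24 replicates a, b and c. The highest value was found in DD36 replicates a, b and c for 9, 6 and 14 members, against 10, 5 and 4 members in the DD24 replicates. Low values thus lay mostly in 2 of the DD24 libraries, while high values were shared between both time points. Over all tested genes, DD24 replicates a and b also held the lowest value more often than the other libraries, for 22.1% and 18.8% of genes, and the highest value for 19.6% and 20.2%.

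The members for purine synthesis, pyrimidine synthesis and folate and one-carbon units were described as a group after their values had been seen. Of the 21 tested members of this group, 20 had a fitted value above 0, with a median of 0.26. Their summed level was 2206, 2229.7 and 2355 CPM in DD36, against 1895, 1799.8 and 1986 CPM in DD24, a ratio of means of 1.195 without overlap between the time points. The sum over all tested members was 4412, 4644 and 4849 CPM in DD36, against 4111, 3914 and 4421 CPM in DD24, where the time points overlapped. No difference between roles was tested. The salvage role had a median of 0.12 with 5 of 8 above 0, or 0.17 with 4 of 6 without *PCON_13558* and *PCON_11995*, the uracil catabolism and uracil-regulated proteins, the nucleotide kinases a median of 0.09 with 4 of 5 above 0, and both subunits of ribonucleotide reductase lay near 0. The members for RNA, DNA and transport had a median of 0.25 with 6 of 7 above 0, close to that of the 21 members above. Those for histidine, tryptophan, NAD and pantothenate had a median of 0.17 with 3 of 5 above 0.

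**Figure D1:**
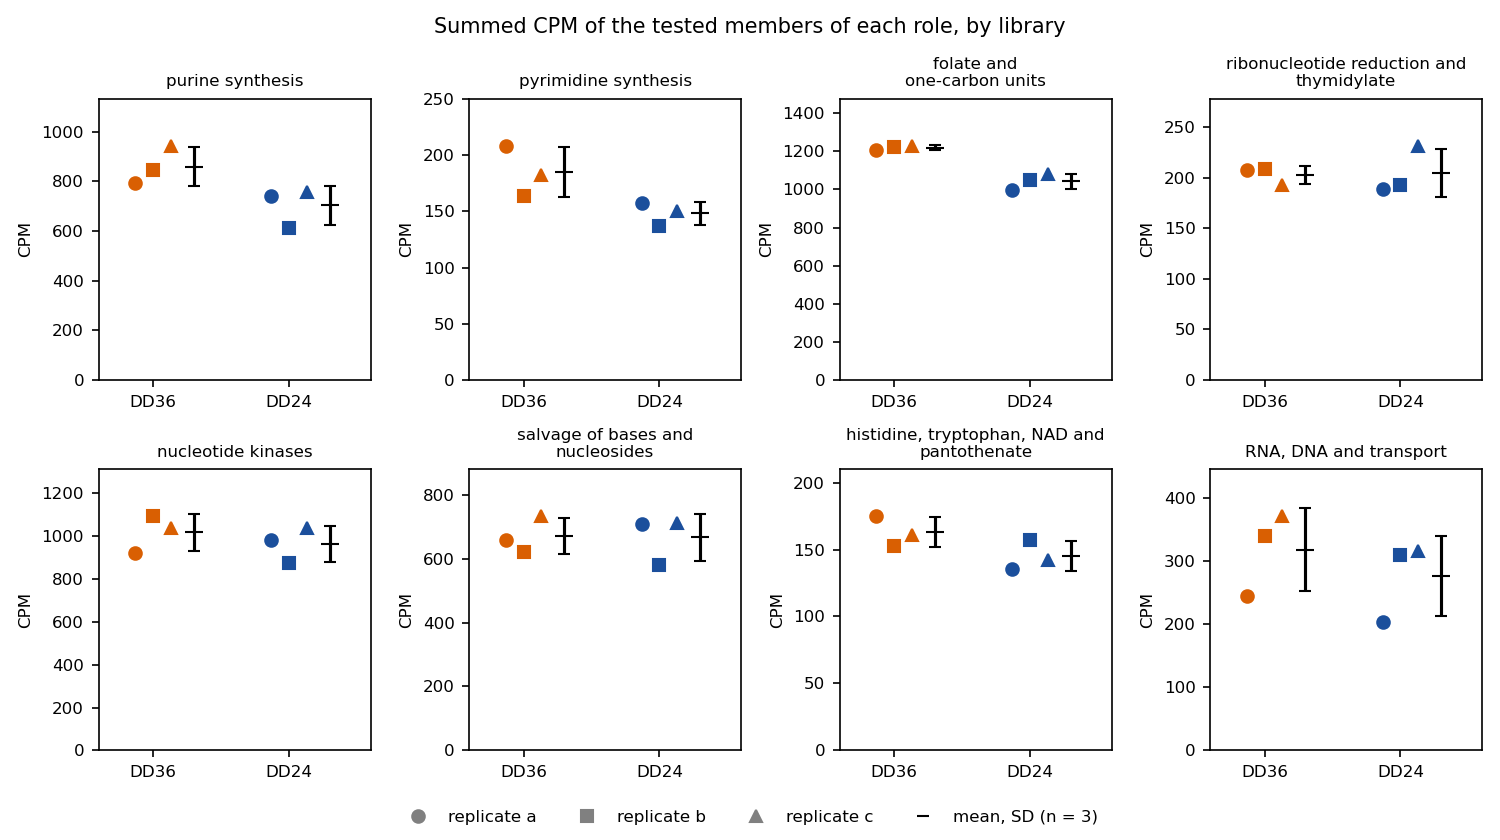
Summed CPM of the tested members of each of the 8 roles (vertical axis, from 0) in each library, with DD36 left of DD24, one symbol per replicate letter and bars for mean ± SD (n = 3). Folate enzymes sit at 1207 to 1229 CPM in DD36 and 997 to 1079 CPM in DD24, whereas the salvage role sits at 622 to 733 CPM in DD36 and 581 to 710.3 CPM in DD24.

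All 9 members for purine synthesis were tested, and all 9 were fitted above 0 on the log2 scale, with a median of 0.27 and a range from 0.11 to 0.54. Together they summed to 791, 843 and 943 CPM in DD36, against 740, 613 and 756 CPM in DD24, or 859 ± 77.2 and 703 ± 78.7 CPM (SD, n = 3 each). The time points did not overlap, but DD36 replicate a was only 1.05 times the highest DD24 library.

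The purine synthesis members with the smallest p were those that lead from IMP to guanine nucleotides. IMP dehydrogenase, *PCON_12633* (scaffold 730, 436 to 2493), which commits IMP to the guanine branch, had 186, 169 and 208 CPM in DD36, against 124, 105 and 176 CPM in DD24. DD24 replicate c lay within the DD36 range, and the other DD24 libraries below it. The log2 fold change was 0.48 ± 0.19 (SE), with an adjusted p of 0.669 by edgeR. GMP synthase, *PCON_13657* (scaffold 862, 295192 to 297280), the next enzyme of this branch, had 90.3, 78.2 and 68.9 CPM in DD36, against 61.4, 33.2 and 71.5 CPM in DD24. Its log2 fold change was 0.54 ± 0.25 (SE) with an adjusted p of 0.711, and DD24 replicate b was the low library while replicate c overlapped with DD36. Leaving out pair c, whose DD24 library was the highest of its group for both genes, from the fit with the block gave 0.64 with an adjusted p of 0.0487 for *PCON_12633* and 0.90 with an adjusted p of 0.0150 for *PCON_13657*. These were the only members called in any of the alternatives that were run. Without DD24 replicate b, the lowest library of both genes, the fit without the block gave 0.31 for *PCON_12633* and 0.24 for *PCON_13657*, both with an adjusted p of 0.996. For *PCON_12633*, the adjusted p ranged from 0.0853 to 0.952 over the remaining alternatives that gave one, with the other pairs left out among them. For *PCON_13657* this range was 0.163 to 0.999.

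The adenine branch showed a smaller difference. Adenylosuccinate synthetase, *PCON_01493*, its first enzyme and the purine synthesis member with the highest level per length (129 CPM per kb of mRNA), had 153, 194 and 208 CPM in DD36, against 178, 149 and 192 CPM in DD24. The time points overlapped, and the log2 fold change was 0.11 ± 0.17 (SE). Adenylosuccinate lyase, *PCON_08301*, which acts both before IMP and in this branch, had a log2 fold change of 0.27 ± 0.24 (SE). The ratio of the guanine branch to the adenine branch in CPM was 1.28, 0.95 and 0.99 in DD36, against 0.72, 0.68 and 1.09 in DD24, and this ratio was chosen after the values had been seen. DD24 replicate c lay among the DD36 libraries in this ratio.

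Among the earlier steps, *PCON_08596*, SAICAR synthase, which adds aspartate to the growing ring, had 59.1, 70.6 and 89.1 CPM in DD36, against 70.9, 49.8 and 55.8 CPM in DD24. The ranges overlapped, at a log2 fold change of 0.34 ± 0.21 (SE). Log2 fold changes of the other members that act only before IMP were 0.51 ± 0.32 for glycinamide ribonucleotide formyltransferase (*PCON_14317*), a folate-dependent step, 0.26 ± 0.17 for formylglycinamidine synthase (*PCON_13761*), 0.20 ± 0.20 for the carboxylase of the ring (*PCON_12471*) and 0.17 ± 0.29 for amidophosphoribosyltransferase (*PCON_05679*), the committing first step. The adjusted p of these 5 enzymes lay between 0.787 and 0.960. The bifunctional purine synthesis proteins *PCON_08941* and *PCON_06712*, which did not match the member words, had 0.20 ± 0.18 and 0.12 ± 0.21. Without IMP dehydrogenase and GMP synthase the purine synthesis members summed to 514, 596 and 666 CPM in DD36, against 554, 475 and 509 CPM in DD24, where the time points overlapped.

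**Figure D2:**
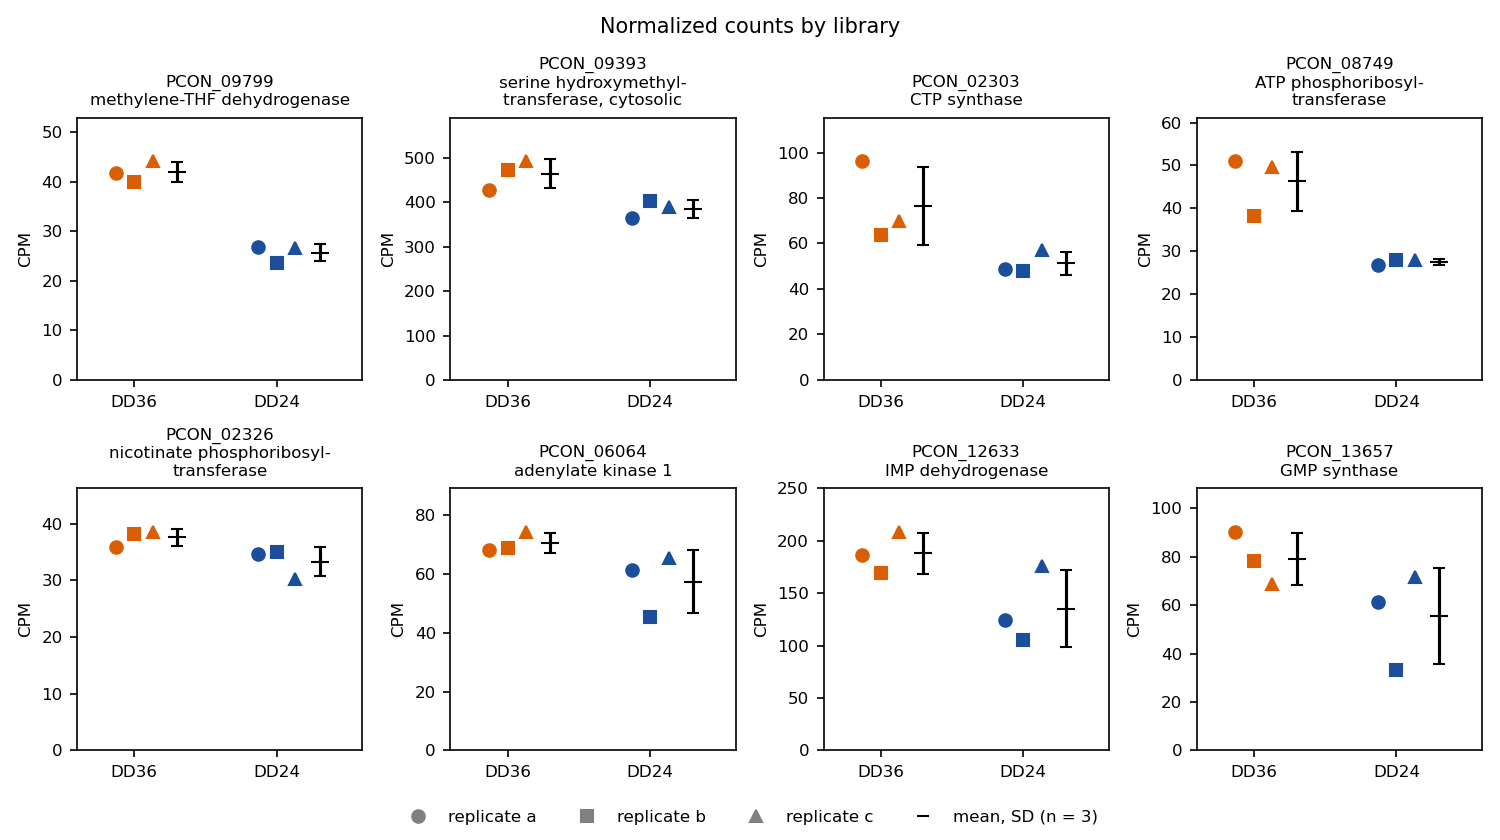
CPM in each library (vertical axes, from 0) for the 6 members whose time points did not overlap and for IMP dehydrogenase and GMP synthase, with DD36 left of DD24 and bars for mean ± SD (n = 3). Methylene-THF dehydrogenase averaged 41.9 ± 2.07 CPM in DD36 and 25.7 ± 1.803 CPM in DD24, and ATP phosphoribosyltransferase 46.3 ± 6.97 CPM in DD36 and 27.5 ± 0.66 CPM in DD24.

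All 7 members for folate and one-carbon units were tested and had fitted values above 0, with a median of 0.20. Their sum was 1207, 1222 and 1229 CPM in DD36, against 997, 1049.8 and 1079 CPM in DD24, or 1219 ± 11.6 and 1042 ± 41.4 CPM (SD, n = 3 each), a ratio of 1.17. This was the role with the smallest relative spread in DD36, and every DD36 library was at least 1.12 times every DD24 library. With libraries scaled by RLE or by total counts, the ratio was 1.17 and 1.37, and in both the time points did not overlap.

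Methylenetetrahydrofolate dehydrogenase, *PCON_09799* (scaffold 473, 18568 to 19954), which oxidizes one-carbon units on folate, had 41.7, 39.95 and 44.1 CPM in DD36, against 26.8, 23.6 and 26.7 CPM in DD24. All DD36 libraries lay well above all DD24 libraries, from 36, 47 and 48 counts in DD36 and 17, 27 and 22 counts in DD24. The log2 fold change was 0.71 ± 0.22 (SE), with an adjusted p of 0.501 by edgeR. The cytosolic serine hydroxymethyltransferase, *PCON_09393* (scaffold 447, 127051 to 129184), which transfers a carbon from serine to tetrahydrofolate, had 428, 473 and 492 CPM in DD36, against 364, 404 and 389 CPM in DD24. The groups did not overlap, at a log2 fold change of 0.27 ± 0.15 (SE) and an adjusted p of 0.756. This gene had the second highest level per length of all members, 227 CPM per kb, and carried the largest share of the folate sum.

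C-1-tetrahydrofolate synthase, *PCON_06646*, which interconverts several forms of charged folate, had 242, 215 and 205 CPM in DD36, against 214, 178 and 179 CPM in DD24. DD24 replicate a lay just within the DD36 range, at a log2 fold change of 0.21 ± 0.15 (SE). The mitochondrial serine hydroxymethyltransferase, *PCON_10651*, had a log2 fold change of 0.17 ± 0.15, and the methylenetetrahydrofolate reductases *PCON_13616* and *PCON_09875*, which direct one-carbon units to methionine, had 0.20 ± 0.19 and 0.09 ± 0.24. For 5-formyltetrahydrofolate cyclo-ligase, *PCON_05436*, which recovers a storage form of folate, it was 0.07 ± 0.29. The ratio of cytosolic to mitochondrial serine hydroxymethyltransferase in CPM was 2, 1.92 and 2.21 in DD36, against 2.03, 1.85 and 1.86 in DD24, so these ranges overlapped.

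Of the 5 tested pyrimidine synthesis enzymes, 4 had a fitted value above 0, with a median of 0.37. CTP synthase, *PCON_02303* (scaffold 1220, 13830 to 16270), which makes cytidine from uridine nucleotides, had 96.1, 63.8 and 69.8 CPM in DD36, against 48.8, 48.1 and 57.0 CPM in DD24. The groups did not overlap, with DD36 replicate a the highest library. The log2 fold change was 0.57 ± 0.20 (SE), with an adjusted p of 0.607 by edgeR, and was 0.36 without DD36 replicate a.

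The enzymes that complete uridine monophosphate had few counts and a wide spread. Orotate phosphoribosyltransferase, *PCON_08453*, had 16.2, 19.6 and 23.9 CPM in DD36, against 25.2, 6.12 and 13.3 CPM in DD24, and orotidine monophosphate decarboxylase, *PCON_12696*, the last step, had 15.1, 14.5 and 11.02 CPM in DD36, against 4.73, 7.87 and 18.2 CPM in DD24. For both, the DD24 libraries spread over a wider range than the DD36 libraries and enclosed them, and the log2 fold changes were 0.56 ± 0.42 and 0.37 ± 0.44 (SE). Single libraries carried these values, since *PCON_08453* had 0.095 without DD24 replicate b and 1.09 without DD24 replicate a, and *PCON_12696* had 0.10 without DD24 replicate a, 0.15 without DD24 replicate b and 1.0001 without DD24 replicate c. The dihydroorotate dehydrogenases gave 0.16 ± 0.23 for the mitochondrial quinone-dependent form (*PCON_01815*) and -0.11 ± 0.27 for the fumarate-dependent form (*PCON_05477*).

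**Figure D3:**
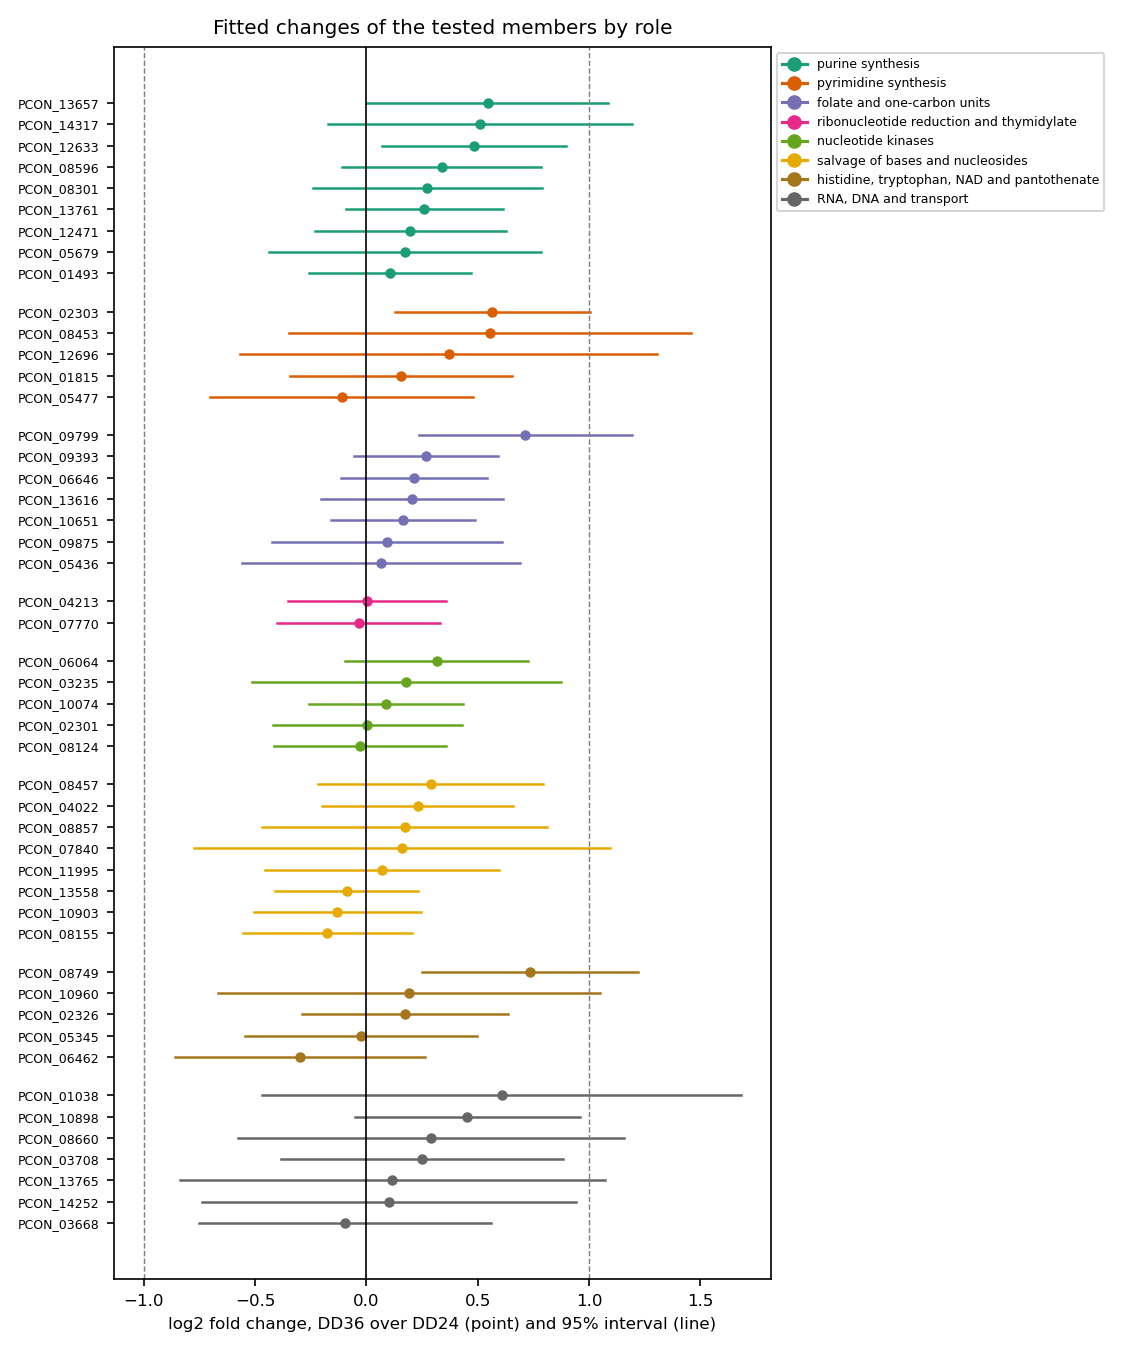
Fitted log2 fold change of DD36 over DD24 (horizontal axis, points) with its 95% interval (lines) for the 48 tested members, grouped by role. Dashed lines mark a 2-fold change in either direction, and 39 points lie right of 0, from *PCON_08749* at 0.73 to the leftmost point, *PCON_06462*, at -0.30.

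Ribonucleotide reductase supplies deoxyribonucleotides for DNA synthesis. Its large chain, *PCON_07770*, had 74.1, 91.0 and 78.0 CPM in DD36, against 77.2, 81.3 and 90.9 CPM in DD24, and its small chain, *PCON_04213*, had 133, 117 and 115 CPM in DD36, against 112, 112 and 141 CPM in DD24. Both genes overlapped between the time points, and their log2 fold changes were -0.03 and 0.0011, with 95% intervals from -0.40 to 0.33 and from -0.35 to 0.36. The sign for the small chain changed in 9 of 16 alternatives, not counting the block fits without a pair. The large chain had 0.19 with total count scaling, 0.07 in the block fit without pair c, and values just above 0 without DD36 replicate a or DD24 replicate c, and stayed below 0 in the other alternatives.

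Nucleotide kinases phosphorylate the products of synthesis and salvage, and 5 of 7 were tested. Nucleoside diphosphate kinase, *PCON_10074*, which makes triphosphates from diphosphates, had the highest level of all members, 1179 CPM per kb. It had 668, 762 and 729.9 CPM in DD36, against 712, 599 and 724 CPM in DD24, so the ranges overlapped at a log2 fold change of 0.09 ± 0.16 (SE). Adenylate kinase 1, *PCON_06064*, which balances adenine nucleotides, had 68.3, 68.9 and 74.4 CPM in DD36, against 61.4, 45.5 and 65.5 CPM in DD24. All DD36 values were above all DD24 values by a small margin, at a log2 fold change of 0.31 ± 0.19 (SE) and an adjusted p of 0.784, and the log2 fold change was 0.15 without DD24 replicate b. Guanylate kinase, *PCON_03235*, which phosphorylates GMP, had 22.0, 29.8 and 31.2 CPM in DD36, against 36.2, 14.0 and 27.9 CPM in DD24, and the log2 fold change of 0.18 ± 0.32 turned to -0.18 when DD24 replicate b, its lowest library, was left out. Adenylate kinase 2 (*PCON_02301*) and uridylate kinase (*PCON_08124*) had log2 fold changes of 0.0031 ± 0.20 and -0.03 ± 0.18.

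All 8 members of the salvage role were tested, and in each of them the time points overlapped. Adenosine kinase, *PCON_04022*, which recovers adenosine as AMP, had 107, 124 and 127 CPM in DD36, against 134, 76.9 and 99.4 CPM in DD24, where the DD24 libraries enclosed the DD36 libraries. The log2 fold change was 0.23 ± 0.20 (SE), and that of an adenosine deaminase similar to CECR1, *PCON_08457*, was 0.29 ± 0.24. The putative uracil phosphoribosyltransferase *PCON_08155*, which recovers uracil as UMP, had 108, 98.6 and 120.3 CPM in DD36, against 139, 99.6 and 133 CPM in DD24. Its log2 fold change was -0.17 ± 0.18 (SE) and turned to 0.07 with total count scaling. Adenine phosphoribosyltransferase, *PCON_10903*, the member of this role with the highest level (94.9 CPM per kb), had -0.13 ± 0.17, which turned to 0.10 with that scaling. The remaining members of this role lay between -0.09 and 0.17, and their intervals all included 0.

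Of the members that use phosphoribosyl pyrophosphate outside nucleotide synthesis, ATP phosphoribosyltransferase, *PCON_08749* (scaffold 392, 94607 to 96007), catalyzes the first step of histidine synthesis, which joins ATP to phosphoribosyl pyrophosphate. It had 51.0, 38.3 and 49.6 CPM in DD36, against 26.8, 28.0 and 27.9 CPM in DD24, from 44, 45 and 54 counts in DD36 and 17, 32 and 23 counts in DD24. The groups did not overlap and the DD24 libraries were nearly equal. The log2 fold change of 0.73 ± 0.23 (SE) was the largest of all members, with an adjusted p of 0.480 by edgeR. Nicotinate phosphoribosyltransferase, *PCON_02326*, which recovers nicotinate for NAD, had 35.9, 38.3 and 38.6 CPM in DD36, against 34.7, 35.0 and 30.3 CPM in DD24. These groups did not overlap either, but the log2 fold change was only 0.17 ± 0.22 (SE). The lowest log2 fold change of all members, -0.30 ± 0.26, was that of *PCON_06462*, a hydroxymethyltransferase of pantothenate synthesis, with 34.7, 42.5 and 26.6 CPM in DD36, against 28.4, 50.7 and 46.1 CPM in DD24.

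In the group for RNA, DNA and transport, the uracil permease *PCON_10898* had the smallest p, with 49.8, 49.3 and 67.0 CPM in DD36, against 33.1, 35.0 and 53.3 CPM in DD24. Replicate c was the highest library at both time points, and the log2 fold change was 0.45 ± 0.23 (SE), with an adjusted p of 0.743 by edgeR. The putative xanthine and uracil permease *PCON_13765* had 92.6, 209.96 and 211 CPM in DD36, against 89.8, 201 and 179 CPM in DD24. Here replicate a was the low library at both time points, so that the replicate letters differed more than the time points did, at a log2 fold change of 0.12 ± 0.40 (SE). A second model with the same annotated match, *PCON_03708*, had 0.25 ± 0.30, and it is not stated how reads were shared between such similar genes. The tRNA uracil methyltransferase *PCON_01038* had the lowest level of the tested members, 5.76 CPM per kb, and a log2 fold change of 0.61 ± 0.50, which was 0.055 without DD24 replicate b and 1.19 without DD24 replicate c.

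**Figure D4:**
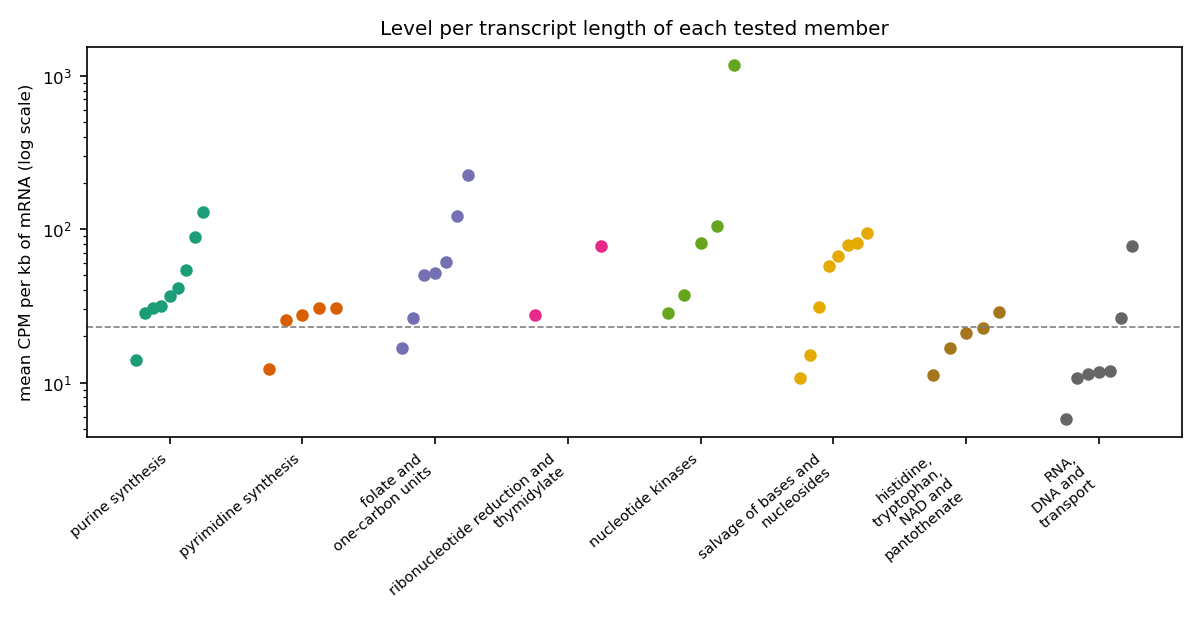
Mean CPM of the 6 libraries per kb of mRNA (vertical axis, log scale) for each of the 48 tested members, one point per gene, grouped by role on the horizontal axis. The dashed line is the median of all 5466 tested genes, 22.9 CPM per kb, and levels run from 5.76 for *PCON_01038* to 1179 for nucleoside diphosphate kinase.

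Per length of mRNA, the median level of the members was 30.7 CPM per kb, beside 22.9 CPM per kb for all tested genes, and 34 of 48 lay above that median. Median percentiles among all tested genes were 85.1 for nucleotide kinases, 80.1 for salvage, 75.8 for folate enzymes, 70.7 for ribonucleotide reductase, 66.8 for purine synthesis, 56.7 for pyrimidine synthesis, 46.5 for the histidine, tryptophan, NAD and pantothenate group and 22.8 for RNA, DNA and transport. The highest levels after nucleoside diphosphate kinase were those of the serine hydroxymethyltransferases, at 227 and 121 CPM per kb, and of adenylosuccinate synthetase.

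The members were dispersed over 45 scaffolds of the reference genome v01_2, and 8 scaffolds held at least 2 of them. The closest were adenylate kinase 2, *PCON_02301*, and CTP synthase, *PCON_02303*, on the plus strand of scaffold 1220, separated by 2629 bases and 1 other model. Their log2 fold changes were 0.0031 ± 0.20 and 0.57 ± 0.20 (SE), and the difference between these neighbors was not tested. The next closest were *PCON_09875* and *PCON_09879* on scaffold 483, 4942 bases apart, of which the second was not tested.

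Further enzymes of these pathways were taken from word lists that overlap with no member. Of 28 further models for purine and pyrimidine metabolism, such as the bifunctional purine synthesis proteins *PCON_06712* and *PCON_08941*, cytidine deaminase and the enzymes of purine breakdown, 20 were tested and 11 had a fitted value above 0, with a median of 0.07. Of 22 further models for folate and the methyl cycle, 17 were tested and 7 had a fitted value above 0, with a median of -0.02. Whether these lists differ from the members was not tested. A single gene of these lists passed the threshold in the fit with the block, uricase, *PCON_09106*, which oxidizes urate during purine breakdown and was singled out after its values had been seen.

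Uricase had 335, 409.7 and 475 CPM in DD36, against 528, 721 and 718 CPM in DD24, or 406 ± 70.1 and 655 ± 111 CPM (SD, n = 3 each). The groups did not overlap, and replicate a was the lowest library at both time points. The log2 fold change was -0.69 ± 0.19 (SE), with an adjusted p of 0.354 by edgeR without the block. With the block, uricase fell, with a log2 fold change of -0.69 and an adjusted p of 0.0111, and this call was lost when pair b was left out (adjusted p 0.516). The other genes of purine breakdown in this list did not pass the test. The allantoinase *PCON_09513* had a log2 fold change of 0.50 ± 0.31 and purine nucleoside phosphorylase, *PCON_13737*, 0.40 ± 0.21, both without overlap, guanine deaminase, *PCON_07913*, had 0.09 ± 0.24, and xanthine dehydrogenase (*PCON_12424*), a second allantoinase (*PCON_06226*) and allantoicase (*PCON_13198*) had -0.09, -0.04 and -0.02.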

How the data were processed

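Unnormalized counts per gene model were deposited by the authors, made from trimmed reads mapped to the *P. confluens* genome v01_2. CASAVA 1.8.2 and DESeq are named in the submitters' processing notes, whereas aligner, counter and use of strand were not given in the sources used here. Other deposited columns hold the authors' comparisons by LOX and DESeq (ratios, probabilities, base means, fold changes and p-values), which were not used. Each of the 6 count columns was matched to a time point and letter, with 0 left out. Labels name the medium WPC and the paper minimal medium.

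Counts were analyzed in R 4.3.3 with edgeR 4.0.16 (filterByExpr, TMM, robust quasi-likelihood fit with the time point as its term, Benjamini-Hochberg adjustment, threshold 0.05) over all tested genes. DESeq2 1.42.0 and limma 3.58.1 (voom) were alternatives. Deviations of same-letter libraries from the means of their time points correlated at 0.223, 0.272 and 0.316 over all genes, past the limit of 0.1 above which letters were taken as pairs, and at -0.165, -0.0442 and -0.0919 over the 48 tested members. How cultures of a letter were related is not stated. Fold changes are DD36 over DD24. Sums, ratios and levels are descriptions without a test.

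Members and lists were chosen with earlier results of these data known. Named are the 3 members of a role with the smallest p, the one with the highest level per kb, members without overlap and members past the threshold, and the untested ones by count. Members outside this rule are given by value only. *PCON_10960* and *PCON_04800* were moved to another role after their products were read. All 57 members matched the RefSeq gene table by locus tag, and 0 had another symbol. No sequences were used here.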

Additional observations from a re-analysis of the deposited data

How the results depend on the processing

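Without the block, 0 genes passed the threshold by edgeR (5 members at an unadjusted p under 0.05), and this count depended on the processing. It was 71 with the replicate block, 69 with the block and RLE size factors, 51 with the block and DESeq2, 53 without the low-count filter, 27 with DESeq2, 3 at an adjusted p under 0.1 and 0 to 20 when single libraries were left out, with 20 without DD24 replicate c. With the replicate block and without pair a, b or c it was 191, 2 and 147. The count of members higher in DD36 was 0 in all alternatives except the block without pair c, where it was 2, and the count of members lower was 0 in all alternatives. DESeq2, with or without the block, gave no adjusted p for several members. Among these were *PCON_09799*, *PCON_08749*, *PCON_13657* and *PCON_02303*, which therefore could not be called by it. The block changed no call of a member. The median log2 fold change of the members was 0.41 with total count scaling, where that of all genes was 0.23, and 0.12 to 0.23 when single libraries were left out. Members higher without overlap numbered 8 to 13 when single libraries were left out, where fewer values have to be separated (13 without DD36 replicate a, 12 without DD24 replicate a, 11 without DD24 replicate b and 13 without DD24 replicate c). The share over all tested genes was not computed for these comparisons, so these counts cannot be read as a result about the members. Between 35 and 39 members had a fitted value above 0 when single libraries were left out, against 47.4 to 51.6% of all genes. With total count scaling it was 47 members against 79.1% of all genes, and 37 members lay above the median of all genes.

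Leaving the block fits without a pair aside, 429 alternative values were computed across 27 genes, of which 406 kept direction and showed no change of side of the threshold. These include values for which DESeq2 gave no adjusted p, where only the direction could be compared. Of the 18 that changed direction, *PCON_04213* gave -0.0013 with the replicate block, -0.0029 with RLE size factors, -0.0024 without *PCON_08583* and the phage models, -0.0027 with DESeq2, -0.0058 with the block and RLE size factors, -0.00044 with the block and DESeq2, and -0.082 to 0.121 when single libraries were left out. *PCON_07770* gave 0.19, *PCON_08155* 0.066 and *PCON_10903* 0.10 with total count scaling. With single libraries left out, *PCON_07770* ranged from -0.128 to 0.035, *PCON_13765* from -0.15 to 0.39 and *PCON_03235* from -0.18 to 0.46. The cause was not tested. Uricase passed the threshold in 7 of 19 alternatives, those without a pair among them, and its adjusted p ranged from 8.25e-08 to 0.949. Leaving out pairs, and counting members above 0 or without overlap, were alternatives chosen after seeing the data. At 806459 to 1132608 counts per library, the interval of 12 of 48 tested members still reached a 2-fold higher level in DD36. Of all 5466 tested genes, 705 did so.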
